A study of Homo sapiens with 12 samples.

Results

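The mRNAs of 32 genes of sterol and fatty acid synthesis were compared between DMAG-treated and control cells of the human line HEL (erythroleukaemia, by its label). DMAG is the 2-O-glucoside of 3,8-Di-O-methylellagic acid, a compound from the plant Sanguisorba. The genes were taken by symbol from a list of biosynthetic enzymes and regulators, by a rule that holds no measured value although the list was drawn up with earlier results of these data known, and all 32 were found among the 19659 genes of the mRNA table. The DMAG group had 3 RNA-Seq libraries from cells given 40 µg/ml for 3 days and the control group had 3 libraries, labelled Control, with no vehicle given. A further 3 small RNA libraries per group gave miRNA counts. Both groups are from 1 cell line. Whether the libraries of a group were grown apart is not stated in the labels, and the spread behind each p-value may therefore be technical.

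Cholesterol is built in the endoplasmic reticulum from acetyl-CoA by way of mevalonate, farnesyl diphosphate, squalene and lanosterol, and fatty acids are built from the same acetyl-CoA through malonyl-CoA. Both routes are under the control of the sterol regulatory element-binding proteins (SREBPs), transcription factors encoded by SREBF1 and SREBF2 that are made as membrane precursors. When sterols are scarce the escort protein SCAP carries the precursors to the Golgi for cleavage, and when sterols are plentiful the INSIG proteins hold SCAP back. SREBF1 and SREBF2 each hold a miRNA of the miR-33 family within the gene, which is known to repress genes of sterol export and fatty acid oxidation.

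The mature miRNAs encoded within the SREBF genes are shown because their levels are given below beside those of the host mRNAs. The sequences are from RefSeq (GRCh38.p14), 5′ to 3′, with the seed (bases 2 to 8) in capitals.
hsa-miR-33a-5p: gUGCAUUGuaguugcauugca
hsa-miR-33b-5p: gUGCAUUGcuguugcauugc
hsa-miR-33a-3p: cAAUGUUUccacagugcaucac
hsa-miR-33b-3p: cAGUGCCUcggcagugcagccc
The 5p arms share the seed UGCAUUG, whereas the 3p arms have different seeds. The miR-33a arms lie at chr22:41900949-41900969 (5p) and chr22:41900989-41901010 (3p) on the plus strand, inside the SREBF2 gene. The miR-33b arms lie at chr17:17813897-17813916 (5p) and chr17:17813857-17813878 (3p) on the minus strand, inside the SREBF1 gene.

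Promoter windows of 300 bases, from 250 before to 50 after the start, were found in RefSeq (GRCh38.p14) for 28 of the 32 genes. They were searched on both strands for the sterol regulatory element TCACNCCAC, to which SREBPs bind, for CCAAT, the site of the partner factor NF-Y, and for GGGCGG, the site of the partner factor SP1. The exact element was found for 1 gene, SREBF2 (3.57% of the 28 genes, beside 1.35% of 8295 tested genes with a window). With at most 1 mismatch it was found for 13 (46.4%, beside 30.1%), CCAAT for 20 (71.4%, beside 43.8%) and GGGCGG for 27 (96.4%, beside 77.3%). The E-box CACGTG, also searched, was found for 4 (14.3%, beside 13.4%). CCAAT stood in the windows of 9 of the 10 matched genes that fell with DMAG and of 11 of the 15 that did not pass. In the same order, GGGCGG stood in 9 and 15, and the element with at most 1 mismatch in 6 and 7. The exact element stood in 0 and 1, and the E-box in 1 and 3. These differences were not tested. The 4 genes without a window were ACAT2, SQLE and FASN, which fell, and FDFT1, which rose. The SREBF2 stretch is shown for its exact element, and those of FDPS, MSMO1, IDI1 and MVK because they hold the element with 1 mismatch and a CCAAT in the same stretch. The last 4 were chosen after the values were seen. Capitals mark the element and the CCAAT box. On the other strand the CCAAT box reads ATTGG, and the IDI1 element is also shown reversed, since it matches on the other strand.
SREBF2: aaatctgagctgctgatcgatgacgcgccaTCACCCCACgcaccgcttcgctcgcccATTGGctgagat
FDPS: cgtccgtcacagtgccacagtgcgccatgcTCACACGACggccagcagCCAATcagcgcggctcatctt
MSMO1: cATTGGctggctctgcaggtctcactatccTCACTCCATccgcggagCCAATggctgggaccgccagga
IDI1: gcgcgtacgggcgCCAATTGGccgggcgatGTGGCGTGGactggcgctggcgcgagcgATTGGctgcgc
MVK: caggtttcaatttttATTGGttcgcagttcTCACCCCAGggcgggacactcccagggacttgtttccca
Their positions are chr22:41832942-41833010, chr1:155308696-155308764, chr4:165327483-165327551, chr10:1048963-1049031 (minus strand) and chr12:109573569-109573637. Of these 5 genes, MSMO1 and IDI1 fell with DMAG and the other 3 did not pass the test. A match of letters is a description of the sequence and not evidence of binding.

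The deposited mRNA values are FPKM, fragments scaled to transcript length and library size, and the depth behind them is unknown. The transcripts of each gene were added up. The 10394 genes averaging 0.5 FPKM or more were fitted with limma after taking log2(FPKM + 1), and a gene was called at a Benjamini-Hochberg adjusted p under 0.05. Changes on this scale understate those of low genes. Libraries correlated at 0.985 to 0.990 within groups and 0.959 to 0.963 between them (across genes, which are not replicates). Erythroid and megakaryocytic markers, which would define the labelled line, were mostly absent: GATA1 was at most 0.142 FPKM, and none of 8 megakaryocytic markers averaged 0.5 FPKM. All 6 granulocytic markers were measured, and their summed FPKM lay between 2372 and 2514 in the control group and between 1567 and 1792 in the DMAG group. Of these, MPO, PRTN3, ELANE and CTSG fell, whereas AZU1 (79.4 and 100.2 FPKM on average) and CLC (319.8 and 523 FPKM) rose. The 4 monocytic markers summed to 167 to 171 and 429 to 479 FPKM, nearly all of it LYZ (168 and 444 FPKM on average). ITGAM also rose (1.57 and 4.68 FPKM), and CD14 and CSF1R stayed below the level tested. The 5 lymphoid markers summed to at most 3.76 FPKM. The 10 erythroid markers had sums of 148 to 173 (control group) and 102 to 1852 FPKM (DMAG group). Outside DMAG replicate 3 the sum was nearly all TFRC, the transferrin receptor, which fell (153 and 102 FPKM on average). EPOR, also measured in all libraries, rose (3.71 and 4.49 FPKM). DMAG replicate 3 stood apart by its globin mRNA, with HBB at 1367 FPKM against at most 0.0731 elsewhere. In bulk RNA, fewer cells of a type and less RNA per cell cannot be told apart, and the part of these shifts in the results below was not tested.

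With DMAG most of the sterol and fatty acid synthesis genes that changed were lower, by between 1.17-fold (ACLY) and 2.68-fold (IDI1). Of the 32 genes 30 reached the level tested, of which 13 fell, 2 rose and 15 did not pass. Among all genes tested 26.1% were called lower and 22.4% higher, beside 43.3% and 6.67% of the 30. The median log2 change was -0.21, beside -0.01 for all genes tested, and 21 of the 30 changes were below 0. The values of the groups did not overlap for 19 of the 30 genes (63.3%), 15 lower and 4 higher with DMAG, which is near the 59.5% of all genes tested. After rescaling to the same sum without mitochondrially encoded genes, which moved the median of all genes to 0.08, the split was 11 lower and 6 higher, and 1883 and 3240 over all genes in place of 2717 and 2333. There TM7SF2, INSIG2, STARD4 and FADS1 newly passed as higher, and MSMO1 and NSDHL no longer passed as lower. Without DMAG replicate 3 it was 13 lower and 3 higher, but not the same genes. There IDI1 (adjusted p = 0.082) and NSDHL (0.088) no longer passed as lower, HMGCS1 (0.020) and MVK (0.022) newly did, and INSIG2 (0.040) newly passed as higher.

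**Figure D1:**
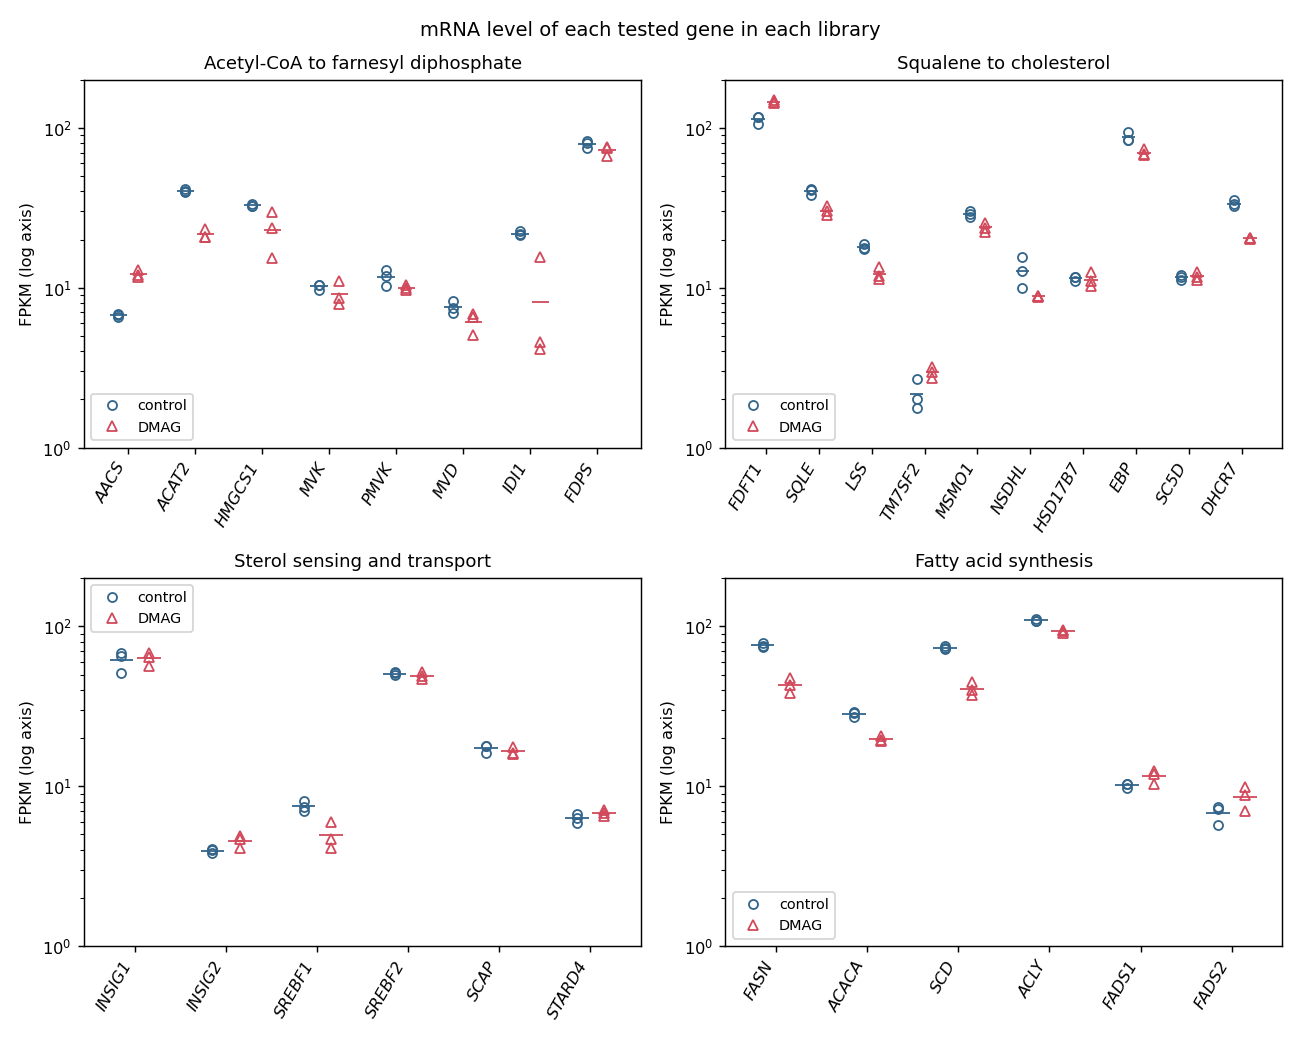
FPKM (log axis) of the 30 tested genes in each library, by role; circles are the 3 control libraries, triangles the 3 DMAG libraries and horizontal lines the group means. ACAT2, DHCR7, FASN and SCD show DMAG libraries well below the controls, AACS and FDFT1 show them above, and the DMAG libraries of IDI1 and HMGCS1 are far apart.

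The first steps, which lead from acetyl-CoA to farnesyl diphosphate, did not move as a block. Of 8 genes, ACAT2 and IDI1 fell, AACS rose and 5 did not pass, with a median log2 change of -0.23. The share called lower was 25%, near the 26.1% of all genes tested, and the share called higher 12.5%, beside 22.4%. ACAT2, the cytosolic thiolase that joins acetyl-CoA units into acetoacetyl-CoA, was at 39.7, 41.2 and 40.2 FPKM in controls and at 20.9, 20.7 and 23.3 FPKM with DMAG. It was 1.87-fold lower, with no overlap of the groups (log2 change -0.87, SE 0.05, adjusted p = 1.0e-04). AACS, which makes the same acetoacetyl-CoA from acetoacetate, went the other way. It was at 6.74, 6.85 and 6.60 FPKM in controls and at 11.6, 12.1 and 12.8 FPKM with DMAG, a 1.81-fold rise (log2 change 0.77, SE 0.05, adjusted p = 1.5e-04). The difference between these changes was not itself tested, but their 95% intervals lie on opposite sides of 0 (-1.004 to -0.743 for ACAT2 and 0.640 to 0.897 for AACS).

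IDI1, the isomerase that makes the starter unit of isoprenoid chains, had the largest fitted fall and the widest spread. Its control values were 21.6, 22.5 and 21.2 FPKM, and its DMAG values 15.6, 4.12 and 4.60 FPKM. All DMAG libraries were below the controls, with replicate 1 well above the other two (log2 change -1.54, SE 0.44, adjusted p = 0.028). Without DMAG replicate 1 the log2 change was -2.09 (adjusted p = 1.6e-04), and the call was lost without any 1 control library or without DMAG replicate 2 or 3 (adjusted p between 0.068 and 0.082). HMGCS1, the HMG-CoA synthase, varied in the same libraries but in another order. It was at 33.5, 32.3 and 32.6 FPKM in controls and at 23.6, 15.3 and 29.9 FPKM with DMAG, and did not pass (log2 change -0.55, adjusted p = 0.082; 0.020 without DMAG replicate 3). Its interval ran from -1.08 to -0.02.

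The enzymes that phosphorylate and decarboxylate mevalonate and join the chains had small changes. MVK averaged 10.2 ± 0.430 FPKM in the control and 9.15 ± 1.66 in the DMAG group, PMVK at 11.7 ± 1.302 and 10.0 ± 0.312, and MVD at 7.55 ± 0.657 and 6.13 ± 0.917 FPKM (mean ± SD, n = 3 libraries here and below). FDPS, the farnesyl diphosphate synthase and the most abundant mRNA of this arm, was at 79.1 ± 4.16 and 72.3 ± 5.29 FPKM. None of these 4 passed, and their 95% intervals allowed log2 changes as low as -0.43 (MVK), -0.40 (PMVK), -0.54 (MVD) and -0.29 (FDPS). MVK and PMVK each passed when 1 library was left out (adjusted p = 0.022 without DMAG replicate 3 and 0.015 without control replicate 1).

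Most of the genes from squalene to cholesterol fell. Of 11 genes 10 were tested, of which 6 fell, 1 rose and 3 did not pass, with a median log2 change of -0.30. The share called lower was 60%, beside 26.1% of all genes tested, and the share called higher 10%, beside 22.4%. DHCR7, the reductase that forms cholesterol from its immediate precursor, was at 32.4, 35.2 and 33.3 FPKM in controls and at 20.2, 20.4 and 20.5 FPKM with DMAG. It was 1.65-fold lower, and the DMAG libraries were nearly identical (log2 change -0.70, SE 0.04, adjusted p = 9.8e-05). LSS, which folds squalene epoxide into lanosterol, was at 18.9, 17.6 and 17.6 FPKM in controls and at 11.3, 13.5 and 11.8 FPKM with DMAG (log2 change -0.53, SE 0.07, adjusted p = 0.0017). SQLE, the epoxidase that acts just before LSS, was at 38.0, 40.6 and 41.6 FPKM in controls and at 28.3, 30.4 and 32.4 FPKM with DMAG (log2 change -0.39, SE 0.06, adjusted p = 0.0028). The groups did not overlap for these 3 genes, as for 59.5% of all genes tested.

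EBP, a sterol isomerase, fell from 87.6 ± 5.99 to 70.0 ± 3.47 FPKM (adjusted p = 0.0065) and MSMO1, a methylsterol oxidase, from 29.0 ± 1.25 to 23.8 ± 1.56 FPKM (adjusted p = 0.0098; 0.058 after rescaling without mitochondrially encoded genes). NSDHL, which acts with MSMO1 in removing methyl groups from the sterol ring, was a weak call. It was at 9.92, 15.5 and 12.6 FPKM in controls and at 8.87, 8.71 and 8.90 FPKM with DMAG (log2 change -0.46, SE 0.14, adjusted p = 0.040). The wide spread was in the controls, and the call was lost without control replicate 2 or 3 or any 1 DMAG library (adjusted p between 0.062 and 0.095), as well as with no filter on low values (0.064).

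FDFT1, squalene synthase, is the enzyme that commits farnesyl diphosphate to sterols, and it was the only one of the 10 to rise. It was at 106, 117 and 118 FPKM in controls and at 144, 150 and 145 FPKM with DMAG, with no overlap (1.29-fold, log2 change 0.36, SE 0.05, adjusted p = 0.0016). By group mean it was also the most abundant mRNA of the list in both groups, although ACLY was higher in control replicate 1 (111 FPKM). TM7SF2, a sterol reductase, was at 2.15 ± 0.477 and 2.95 ± 0.232 FPKM and did not pass (adjusted p = 0.058; 0.013 without control replicate 2). HSD17B7, a keto-reductase of the sterol ring, was at 11.4 ± 0.344 and 11.2 ± 1.19 FPKM, and SC5D, a sterol desaturase, at 11.6 ± 0.491 and 11.8 ± 0.647 FPKM. Their intervals excluded log2 changes beyond -0.21 to 0.16 (HSD17B7) and -0.12 to 0.16 (SC5D). CYP51A1, the lanosterol demethylase that follows LSS, was listed at 0.0775, 0.0595 and 0 FPKM in controls and at 0, 0 and 0.108 FPKM with DMAG, below the level tested. The genes before and after it in the pathway were measured, and the 3 transcripts the table lists for it were near 0 or at 0, so whether this is its level in the cells cannot be told from these values.

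**Figure D2:**
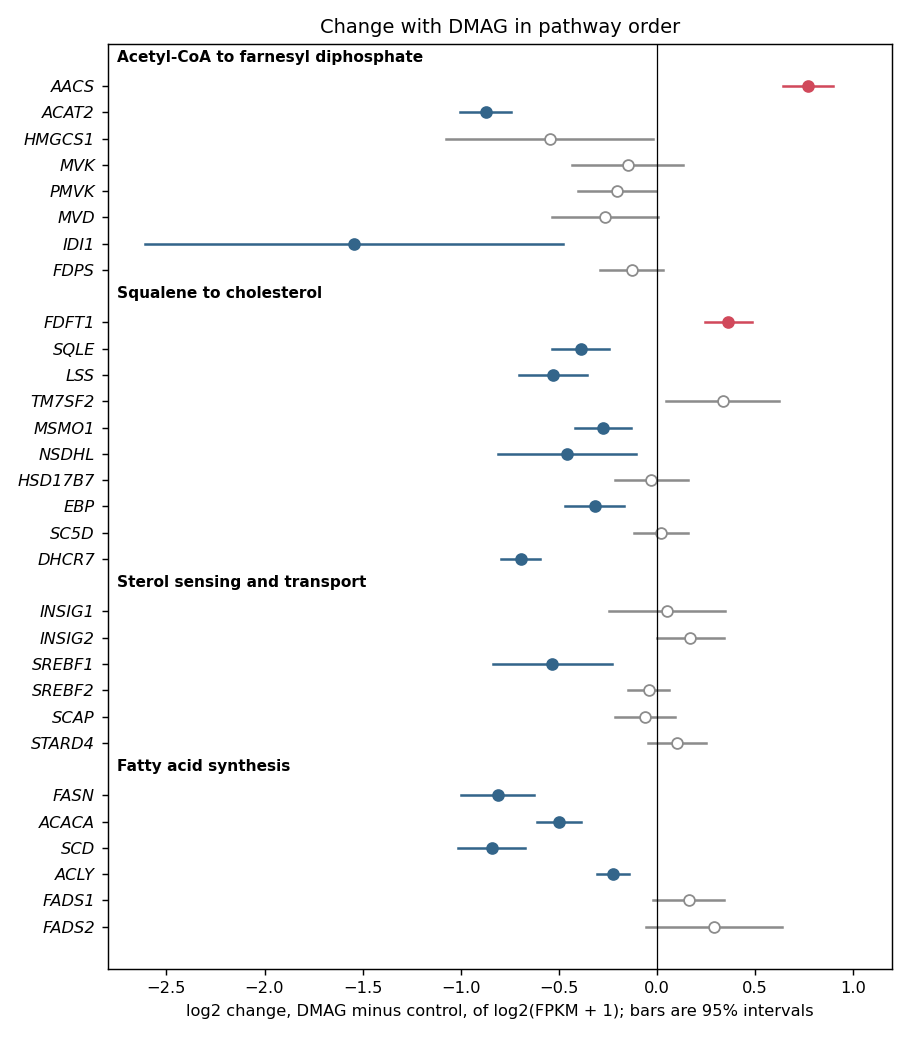
Change of each tested gene with DMAG on the log2(FPKM + 1) scale, in pathway order, with unadjusted 95% intervals; filled points passed at an adjusted p under 0.05 (blue lower, red higher). Falls lie in all 4 role groups, the rises are AACS and FDFT1, and the interval of IDI1 is the widest.

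The sterol-sensing genes mostly stayed within a narrow range. Of 6 genes 1 fell (16.7%, beside 26.1% of all genes tested) and 5 did not pass, with a median log2 change of 0.00. SREBF1, which encodes the SREBP most tied to fatty acid synthesis, was at 7.46, 6.99 and 8.05 FPKM in controls and at 4.10, 4.65 and 6.01 FPKM with DMAG. All DMAG libraries were lower, 1.52-fold on average (log2 change -0.53, SE 0.12, adjusted p = 0.014). SREBF2, which encodes the SREBP most tied to sterol synthesis, was at 50.9, 49.6 and 51.7 FPKM in controls and at 47.1, 49.1 and 51.6 FPKM with DMAG. These groups overlapped, and the interval of its log2 change ran from -0.15 to 0.06 (adjusted p = 0.47). The escort SCAP was at 17.3 ± 1.07 and 16.6 ± 0.961 FPKM, with an interval from -0.21 to 0.09.

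INSIG1, itself an SREBP target, was at 68.2, 51.0 and 65.1 FPKM in controls and at 64.7, 56.9 and 68.6 FPKM with DMAG, with full overlap (adjusted p = 0.76). Its interval ran from -0.25 to 0.35, and replicate 2 was the lowest library in each group. INSIG2 was at 3.94 ± 0.129 and 4.57 ± 0.391 FPKM, with all DMAG libraries above the controls but an adjusted p of 0.091 (0.040 without DMAG replicate 3). STARD4, a carrier of sterols between membranes, was at 6.30 ± 0.374 and 6.82 ± 0.296 FPKM (adjusted p = 0.22).

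Fatty acid synthesis genes differed in their calls. The 4 tested genes of the core route from citrate to monounsaturated fatty acids all fell, and ELOVL6 of that route was below the level tested. The 2 desaturases of polyunsaturated fatty acids did not pass, and the difference between these sets was not tested. Of the 6 genes tested 66.7% were called lower, beside 26.1% of all genes tested. FASN, the fatty acid synthase, was at 75.6, 78.3 and 74.8 FPKM in controls and at 38.5, 43.1 and 47.7 FPKM with DMAG (1.77-fold lower, log2 change -0.81, SE 0.08, adjusted p = 4.2e-04). SCD, the stearoyl-CoA desaturase, was at 73.2, 72.3 and 75.3 FPKM in controls and at 37.2, 40.1 and 45.1 FPKM with DMAG (1.81-fold lower, log2 change -0.84, SE 0.07, adjusted p = 2.8e-04). In both genes the highest DMAG library was far below the lowest control.

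ACACA, the acetyl-CoA carboxylase that makes malonyl-CoA, was at 29.1, 27.0 and 28.7 FPKM in controls and at 19.4, 19.1 and 20.5 FPKM with DMAG (log2 change -0.50, SE 0.05, adjusted p = 4.1e-04). ACLY, which splits citrate into acetyl-CoA, fell least, from 109 ± 1.76 to 93.2 ± 2.33 FPKM (adjusted p = 0.0024). FADS1 was at 10.2 ± 0.320 and 11.5 ± 1.11 FPKM (adjusted p = 0.12; 0.022 without DMAG replicate 1) and FADS2 at 6.78 ± 0.947 and 8.55 ± 1.47 FPKM (adjusted p = 0.14; 0.044 without DMAG replicate 2). ELOVL6, an elongase of the same route, was listed at 0.0128, 0.00846 and 0 FPKM in controls and at 0 in all DMAG libraries, below the level tested, and as for CYP51A1 its level in the cells cannot be told from these values.

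The summed FPKM of the 32 genes was 1021 ± 5.07 in controls and 863 ± 32.6 with DMAG. The fatty acid group went from 304 ± 2.39 to 217 ± 13.0 FPKM, the steps up to farnesyl diphosphate from 210.2 ± 4.76 to 162 ± 9.65, those from squalene from 360 ± 5.33 to 338 ± 5.63, and the sensing genes from 147 ± 10.3 to 146 ± 7.41. The sum from squalene on includes the rise of FDFT1. The summed FPKM of all genes was itself lower with DMAG, at 328350 to 332916 against 348907 to 357821 in controls. The sums above are not corrected for this and were not tested. Among the 13 genes that fell, DMAG replicate 3, the library with high HBB, had the highest DMAG value in 10 (76.9%), beside 41.2% of all 2717 genes called lower. The part of that library's other features in this was not tested.

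Single transcripts carried less certain values than the gene sums. Of 182 transcripts of the 32 genes 97 were tested, of which 7 fell and 1 rose, beside 5.70% called lower and 4.58% called higher among all 26969 transcripts. The 8 were the main transcripts of ACAT2, SQLE, LSS, EBP, FASN, SCD and AACS and a second transcript of EBP, ENST00000414061, which fell from 11.5 to 3.23 FPKM on average. No called transcript went against its gene. For 8 of the 23 genes with several tested transcripts, the most abundant transcript was not the same in all libraries of a group. FDFT1 is an example: ENST00000525900 was listed at 0, 43.2 and 54.0 FPKM in controls and at 61.9, 0 and 66.8 FPKM with DMAG, while the gene sum had an SD of 6.40 and 3.37 FPKM. For SREBF1, ENST00000395757 was at 1.81, 2.08 and 4.08 FPKM in controls and at 1.53, 2.19 and 4.97 with DMAG, and ENST00000261646 at 5.11, 4.31 and 2.29 and at 2.31, 1.94 and 0 FPKM. Neither SREBF1 transcript passed, so the fall of SREBF1 is a statement on the gene sum.

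The miRNAs encoded within member genes were read from the small RNA libraries, which held 4303596 to 6003077 miRNA counts each. They were tested with edgeR's quasi-likelihood test among 583 miRNAs, of which 23.8% were called lower with DMAG. Of 6 mature miRNAs 4 were tested, of which 2 fell and 2 did not pass. hsa-miR-33a-5p, from SREBF2, had 168, 151 and 148 counts in controls and 84, 70 and 97 with DMAG. Scaled, it fell from 29.4 ± 4.70 to 17.4 ± 2.44 CPM (counts scaled to library size, TMM), 1.69-fold, with all DMAG libraries below the controls (log2 change -0.75, adjusted p = 0.0033). Its partner arm hsa-miR-33a-3p was at 56.7 ± 3.26 and 47.9 ± 1.11 CPM and did not pass (log2 change -0.24, adjusted p = 0.070; -0.44 and 0.011 without scaling beyond the column total). The ratio of 5p to 3p counts was 0.594, 0.515 and 0.447 in controls and 0.357, 0.321 and 0.409 with DMAG, lower in each DMAG library (exact permutation test, two-sided p = 0.10, the smallest that 3 against 3 allows).

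hsa-miR-33b-3p, from SREBF1, had 56, 50 and 63 counts in controls and 10, 19 and 26 with DMAG, and fell from 10.5 ± 0.434 to 3.85 ± 1.72 CPM (2.74-fold, log2 change -1.45, adjusted p = 0.0027). Its partner arm hsa-miR-33b-5p, which shares its seed with hsa-miR-33a-5p, had 0 to 2 counts per library and was not tested. Thus the miRNA arm and the mRNA of SREBF1 were both lower with DMAG, while hsa-miR-33a-5p was lower and the SREBF2 mRNA did not pass. The mature arms and the mRNAs come from different libraries, and the difference between host and miRNA changes was not tested. hsa-miR-1908-5p, encoded within the FADS1 gene, had 11, 9 and 9 counts in controls and 8, 12 and 0 with DMAG (adjusted p = 0.67), and hsa-miR-1908-3p at most 2.

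**Figure D3:**
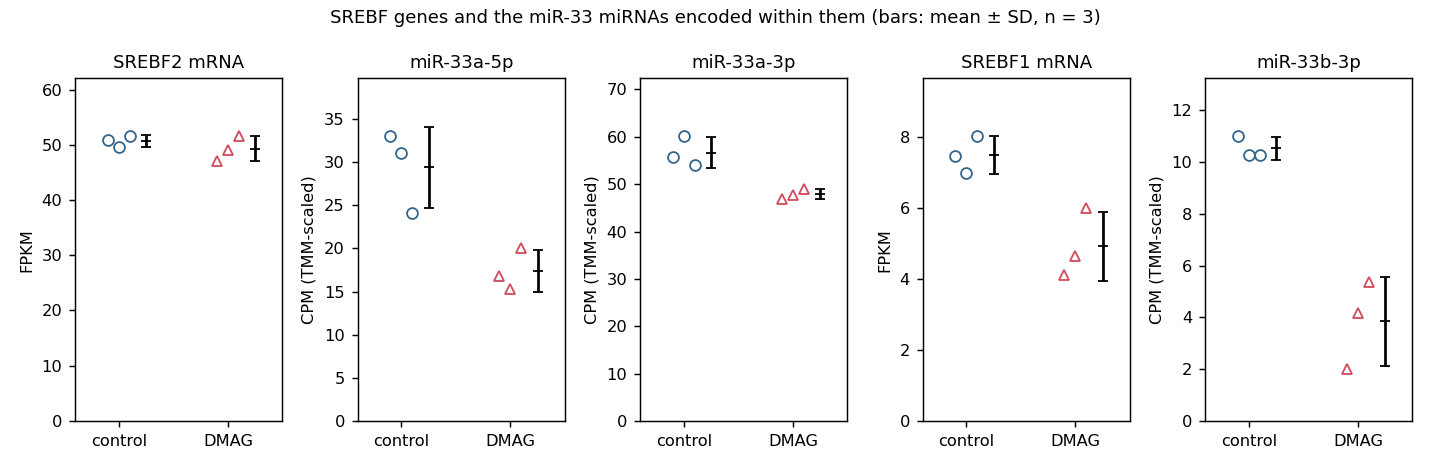
SREBF2 and SREBF1 mRNA (FPKM) and the tested miR-33 arms (TMM-scaled CPM) in each library, with mean ± SD, 3 libraries per group, axes starting at 0. hsa-miR-33a-5p falls from 29.4 to 17.4 CPM while SREBF2 stays near 50.7 and 49.3 FPKM, and SREBF1 and hsa-miR-33b-3p are both lower with DMAG.

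Genes around the pathway moved in both directions and at shares close to those of all genes. Of 89 genes in 6 related lists 85 were tested, of which 22 fell (25.9%) and 19 rose (22.4%), beside 26.1% and 22.4% of all genes. The number that rose was 12 without control replicate 2, DMAG replicate 1 or DMAG replicate 2, and 32 after rescaling without mitochondrially encoded genes, where 17 fell. Of 14 genes that cleave SREBPs, degrade sterol-regulated proteins or act as SREBP partners at promoters, 4 fell (28.6%) and 3 rose (21.4%). NFYA, a subunit of the CCAAT-binding factor NF-Y, fell from 23.1 ± 0.381 to 14.0 ± 0.665 FPKM (adjusted p = 1.4e-04). The NF-Y subunit NFYB (9.57 ± 0.316 and 11.1 ± 0.849 FPKM) narrowly did not pass, with all DMAG libraries above the controls (log2 change 0.19, adjusted p = 0.051). NFYC (16.2 ± 1.88 and 17.4 ± 2.75 FPKM) overlapped and did not pass (adjusted p = 0.57). The segregase VCP fell 1.25-fold (adjusted p = 0.0011) and ERLIN2, a lipid raft protein of the endoplasmic reticulum, rose 1.196-fold (adjusted p = 0.0060).

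Of 20 genes of acyl-CoA and glycerolipid synthesis 19 were tested, of which 5 fell (26.3%) and 3 rose (15.8%). Among all genes tested 26.1% fell and 22.4% rose. The elongase ELOVL1 fell from 46.7 ± 2.86 to 29.3 ± 0.489 FPKM (adjusted p = 2.1e-04) and DGAT1, which makes triacylglycerol, from 13.0 ± 0.821 to 7.49 ± 0.308 FPKM (adjusted p = 3.0e-04). ACSL1, an acyl-CoA synthetase, rose from 16.5 ± 0.184 to 28.5 ± 3.03 FPKM (adjusted p = 5.0e-04). Of 16 genes of fatty acid oxidation 15 were tested, of which 3 fell (20%) and 2 rose (13.3%). CPT1A, the gate for fatty acids into mitochondria, fell from 73.0 ± 0.282 to 47.8 ± 1.47 FPKM (adjusted p = 8.6e-05), ECHS1 fell 1.19-fold (adjusted p = 0.0029), and the flavoprotein subunit ETFB rose 1.297-fold (adjusted p = 0.0026).

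Of 17 genes of sterol export, storage and lysosomal release 15 were tested, of which 6 rose (40%) and 4 fell (26.7%). The shares of all genes tested were 22.4% and 26.1%. OSBP, an oxysterol-binding protein, rose 1.14-fold (adjusted p = 0.0061) and STARD3, a sterol carrier of late endosomes, 1.23-fold (adjusted p = 0.0080). LPCAT3, a phospholipid acyltransferase, fell 1.23-fold (adjusted p = 0.0025). The largest called changes of this list were a 1.85-fold fall of TMEM97 (adjusted p = 0.019) and a 1.66-fold rise of NR1H3 (adjusted p = 0.010). The exporter ABCA1 averaged 0.0404 and 0.0266 FPKM, and ABCG1 averaged 0.0530 FPKM in controls and was listed at 0 with DMAG, both below the level tested. Of 15 genes of the isoprenoid branches outside sterol synthesis 4 fell (26.7%) and 2 rose (13.3%). ICMT, a methyltransferase (1.18-fold lower, adjusted p = 0.0040), and RCE1, a protease (1.26-fold lower, adjusted p = 0.0072), both act on proteins after prenylation. Of the protein prenyltransferase subunits, PGGT1B rose (adjusted p = 0.028), RABGGTA fell (adjusted p = 0.028), and FNTA, FNTB and RABGGTB did not pass. Of 7 cytosolic enzymes of the pentose phosphate route and NADPH supply 3 rose (42.9%) and 2 fell (28.6%). PGD rose from 191 ± 5.23 to 253 ± 8.80 FPKM (adjusted p = 5.2e-04). TKT was 1.26-fold higher (adjusted p = 7.2e-04) and ME1 1.24-fold higher (adjusted p = 0.0053).

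**Figure D4:**
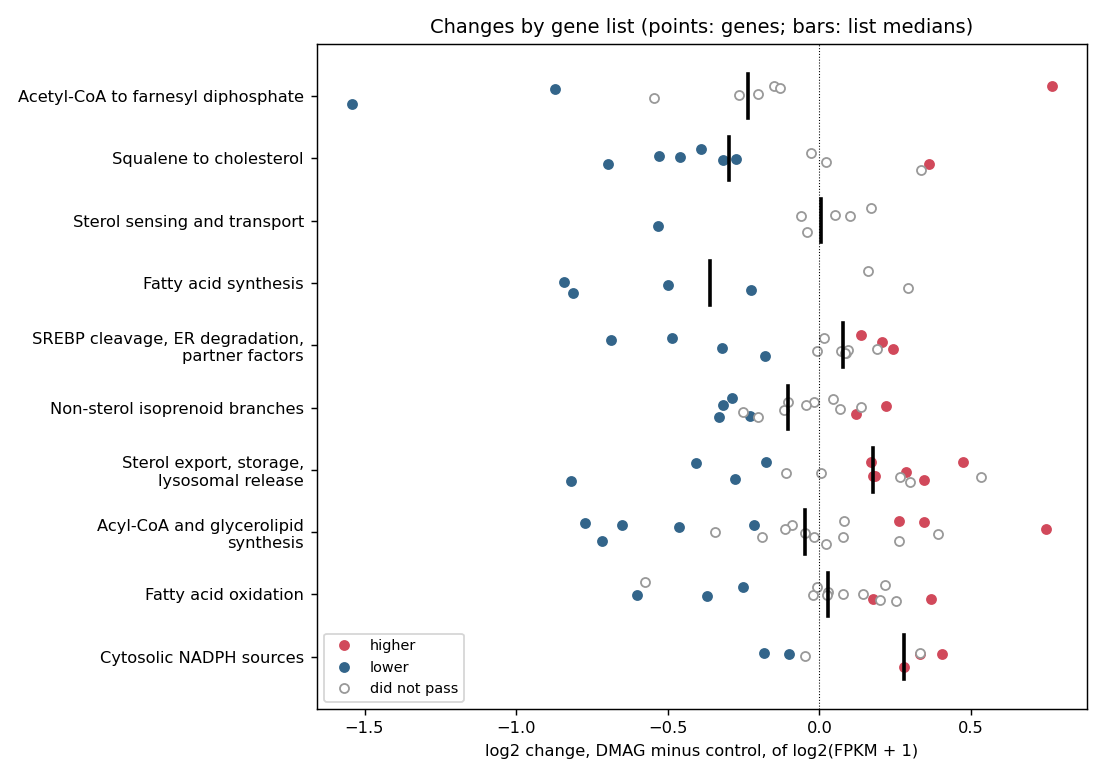
Log2 change with DMAG of each tested gene by list, the 4 synthesis groups above and the 6 related lists below; filled points passed the test (blue lower, red higher) and bars are list medians. Medians are -0.23, -0.30, 0.00 and -0.36 for the synthesis groups from top to bottom and 0.08, -0.10, 0.18, -0.05, 0.03 and 0.28 for the related lists.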

How the data were processed

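Per the labels' protocols, RNA-Seq libraries were made after removal of ribosomal RNA, and small RNA libraries by adapter ligation, 3 controls and 3 with DMAG each. Per the submitters' processing notes HISAT2 2.0.4, Bowtie, StringTie 1.3.3 and GRCh38 were used, with no role stated for any of them. The authors deposited FPKM per mRNA transcript and, for miRNAs, read counts with TPM (not used). No per-sample column lacked a sample. The lncRNA and circular RNA tables were not used.

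FPKM were summed per gene and fitted with limma 3.58.1 (R 4.3.3, mean trend, pseudocount 1, mean of at least 0.5 FPKM); miRNA counts with edgeR 4.0.16 (TMM, filterByExpr with a minimum count of 10) and, as an alternative, DESeq2 1.42.0. In simulated data with 200 features changed by 1 on the log2 scale, 90.5% of changed genes (among 10394), 27.5% of transcripts (among 26968) and 87.8% of miRNAs (among 573) were recovered, with 5.24%, 6.78% and 5.46% false calls. In the data 48.6% of genes tested were called, and the median log2 change of the 30 synthesis genes was -0.21. The simulated rates therefore do not give the power or false calls for the changes reported here. The members and lists were chosen with earlier results of these data known. Full statistics were given for up to 4 genes per role group with the largest change and for those whose call moved, and up to 3 genes with the smallest p of each related list. Promoter stretches with the exact element were printed, with 4 more added after the values were seen. Replicate numbers were not used to pair libraries in the reported fits. Alternatives were pseudocounts, filters, scalings, no trend, a replicate block, the most abundant transcript and leaving out each library. Intervals are limma's, at 95%. Some genes that the naming rule would name are not reported here. NFYB, NFYC, TMEM97, NR1H3, ABCA1, ABCG1, the protein prenyltransferase subunits and the EBP transcript ENST00000446158 were named after their values were seen.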

Additional observations from a re-analysis of the deposited data

How the results depend on the processing

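Over the alternatives for the 30 tested genes, 404 values kept their direction and their side of the threshold, 19 fell short of it, 13 newly passed it and 14 changed sign. Of the counts, 73 stayed within 1.5 times the reported one and 11 did not. Genes that kept their call under each of the 15 alternatives were AACS, ACAT2, SQLE, LSS, EBP, FASN and SCD. DHCR7, ACACA, ACLY, FDFT1 and SREBF1 kept theirs under 14 and missed only with the most abundant transcript alone. AACS, ACAT2 and SCD have 1 listed transcript, so for them that alternative uses the same values as the gene sum. After rescaling without mitochondrially encoded genes 6 synthesis genes and 32 related genes rose, and HSD17B7 (0.065), SREBF2 (0.057) and SCAP (0.035) changed the sign of their log2 change. With a replicate block 3 synthesis genes rose and 12 fell, FADS2 newly passing (adjusted p = 0.027) and NSDHL no longer passing (0.054), and 0 transcripts rose and 1 fell. Same-numbered libraries of the mRNA table had correlations of deviations of -0.0048, 0.0426 and 0.027, so the numbers are not treated as pairs. Such low values do not exclude pairing. With a pseudocount of 0.1, or at a mean of at least 2 FPKM, 2 transcripts rose. Leaving out 1 library at a time gave 12 to 19 related genes and 1 to 2 transcripts that rose. Taken alone, the most abundant transcript had a log2 change of 1.07 for MVK, 0.32 for MSMO1, 1.44 for NSDHL, 0.042 for SREBF1, 0.00052 for SCAP and -0.71 for FADS2, each opposite in sign to the gene sum and none past the threshold. With 1 library left out, the log2 change ran from -0.075 (without control replicate 2) to 0.13 for INSIG1, which was -0.0071 without DMAG replicate 3, from -0.019 (without DMAG replicate 1) to 0.053 for SC5D, which was -0.0097 without control replicate 1, from -0.10 to 0.033 (without DMAG replicate 2) for HSD17B7 and from -1.13 to 0.21 (without DMAG replicate 3) for hsa-miR-1908-5p. The causes were not tested. The depth behind FPKM is unknown, so no counting limit is given for mRNA, and a miRNA count of 0 allows 0.4997 to 0.697 CPM (3 counts, counting error only).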
